A study of Mus musculus with 12 samples.

Results

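The cytosolic ribosomal proteins are the protein subunits of the ribosome that translates nuclear mRNAs. The genes were taken by symbol from the deposited count table (Rpl or Rps with a number and at most a short suffix, plus Rpsa, Rplp0, Rplp1 and Rplp2), without pseudogenes and without the S6 kinases. The rule found 87 genes of 56748 in the table, of which 33 belong to the small and 54 to the large subunit. A filter on low counts left 82 of the 87 for testing, of 12547 genes in all. RNA came from G1E-ER4, a murine proerythroblastic line from a male mouse that lacks endogenous GATA1 and carries a GATA1-estrogen receptor fusion, so that estradiol starts its differentiation. Sf3b1 encodes a core protein of the U2 snRNP, which recognises the branch point of introns. The comparison sets 3 libraries of cells heterozygous for the K700E change (genotype Sf3b1 K700E/+) against 3 of isogenic wild-type cells (Sf3b1 +/+), each taken at 24 h of estradiol. Both clones went through the same CRISPR-Cas9 editing, hygromycin selection, flippase excision and single-cell sorting. Each genotype is 1 clone, so genotype and clone cannot be told apart, and nothing in the labels says that the libraries of a genotype are separate cultures, so that a p-value covers only the spread among these libraries, which may be technical.

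Ribosomal proteins assemble with ribosomal RNA in the nucleolus and nucleus, and most of them are held in equal numbers in a finished ribosome. Their mRNAs start with a pyrimidine tract, the 5′ terminal oligopyrimidine (TOP) motif, through which mTORC1 and LARP1 control their translation as a group. Erythroid precursors depend strongly on ribosome supply. In humans, loss of 1 copy of RPS19 or of other ribosomal protein genes causes Diamond-Blackfan anemia, a red cell aplasia, and loss of 1 copy of RPS14 contributes to the anemia of the 5q- syndrome, another myelodysplastic disorder beside the SF3B1-mutated one.

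Many genes of the family hold a pyrimidine tract near the start of the transcript, and a few starts are shown to set genes with the tract beside genes without it. RefSeq promoters of GRCm38.p6 matched 64 of the 87 genes. Each window runs from 10 bases before to the first 20 bases of the transcript, on the strand of the gene, and capitals mark a C followed by at least 5 letters that are each C or T.
Rps3 (chr7:99483690-99483719, - strand): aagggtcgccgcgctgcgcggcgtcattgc
Rps16 (chr7:28350679-28350708, + strand): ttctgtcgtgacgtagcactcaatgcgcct
Rpl18 (chr7:45718061-45718090, + strand): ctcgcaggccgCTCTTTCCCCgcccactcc
Rpl27a (chr7:109519185-109519214, + strand): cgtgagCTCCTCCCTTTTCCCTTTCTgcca
Rpl28 (chr7:4792955-4792984, + strand): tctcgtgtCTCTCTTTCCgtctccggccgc
Rpl13a (chr7:45128726-45128755, - strand): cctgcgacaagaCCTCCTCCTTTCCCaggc
Rps9 (chr7:3704031-3704060, + strand): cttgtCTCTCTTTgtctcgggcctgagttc
Rps12 (chr10:23787190-23787219, - strand): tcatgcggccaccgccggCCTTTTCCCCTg
Rpl27 (chr11:101442235-101442264, + strand): ctgttcctgtctgctgctcgtgctgctaat
Rps3, Rps16, Rpl18, Rpl27a, Rpl28 and Rpl13a are genes of chromosome 7 that were higher in K700E/+ cells, and Rps3 and Rps16 have no such tract in their windows. Rps9 is the gene of chromosome 7 that did not pass the test, Rps12 carries the intron with the lowest adjusted p among the family's splicing events, and Rpl27, higher in K700E/+ cells and on chromosome 11, has no tract in its window either. The tract was found on the strand of the gene, in at least 1 window, for 37 of the 64 matched genes (57.8%). Over all genes in the table it was found for 6735 of 27025 (24.9%). On chromosome 7 it was found for 9 of 11 matched genes of the family (81.8%), where Rps3 and Rps16 are those without it. The share over all genes of chromosome 7 is not given here, so the 81.8% cannot be set beside it. RefSeq starts can lie off the start used in these cells, so a window without the tract says only that these letters are not in it.

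K700E/+ libraries held 44045337 to 50077827 counts and +/+ libraries 38785471 to 40702174. Levels are given as CPM, counts relative to library size after TMM scaling, and they are not divided by gene length. The 12 erythroid markers all had reads, and their summed level ran from 9653 to 15610 CPM in K700E/+ libraries and from 11510 to 15980 CPM in +/+ libraries. Among these markers, Gata1 was higher in K700E/+ cells and Hbb-bt lower. Gata1 counts averaged 320.1 CPM in K700E/+ cells and 159.6 CPM in +/+ cells (log2 fold change 1.00 ± 0.07 SE, edgeR adjusted p = 9.43e-06), and Hbb-bt, an adult beta globin gene, averaged 42.3 CPM in K700E/+ cells and 133.1 CPM in +/+ cells (-1.66 ± 0.36, edgeR adjusted p = 0.00501). In this line the Gata1 reads that come from the fusion transgene were not told apart from others, and the part of these markers in the results below was not tested. The 8 granulocyte and macrophage markers summed to 0.0234 to 0.0599 CPM in K700E/+ libraries and 4.46 to 11.4 CPM in +/+ libraries, with 3 of them without any read. The 5 mast cell, basophil and eosinophil markers summed to 25.2 to 53.4 CPM in K700E/+ libraries and 71.0 to 85.02 CPM in +/+ libraries, and the 4 megakaryocyte markers to 8.70 to 18.3 CPM in K700E/+ libraries and 15.9 to 27.6 CPM in +/+ libraries. Lymphoid markers stayed at or under 0.0492 CPM in every library. The part of these other lists in the results was not tested either. A K700E base change does not show in counts per gene, and Sf3b1 itself stood at 754.3 CPM in K700E/+ cells and 747.3 CPM in +/+ cells (edgeR adjusted p = 0.858).

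Most ribosomal protein mRNAs were close to equal in K700E/+ and +/+ cells, and the genes that were higher in K700E/+ cells lay almost all on 1 chromosome. Of the 82 tested genes, 16 were higher and 3 lower at an adjusted p under 0.05 (edgeR's quasi-likelihood test, Benjamini-Hochberg adjustment over all genes). This test did not pair libraries of the same replicate number, and calls with that number as a block are given separately below. Over all genes tested, 21.3% were called higher and 23.1% lower. None of the 82 changed by more than 1 on the log2 scale, the limit the study set for a differentially expressed gene, against 4.07% of all tested genes called higher and 6.24% called lower at that limit. The median log2 fold change of the family was 0.02, beside -0.01 for all genes, and 63 of the 82 lay within 0.2 of 0. In 34 of the 82 genes the 3 libraries of 1 genotype all lay above the 3 of the other, which was so for 54.3% of all genes.

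Chromosome 7 held 14 of the 82 tested genes, and 13 of these 14 were the 13 genes of the family with the highest log2 fold changes. All 13 were higher in K700E/+ cells, by 1.37 to 1.72 times, and in each the 3 K700E/+ libraries lay above the 3 +/+ libraries. On chromosome 7, 60.0% of all tested genes were called higher and 7.34% lower. The groups lay apart, in either direction, in 688 of the 954 genes tested there. The 14 genes had a median log2 fold change of 0.54, against 0.46 for all 954 genes tested there and 0.45 for the 940 of these that are not ribosomal protein genes. They comprise 9 small subunit genes, with a median of 0.51, and 5 large subunit genes, with a median of 0.56.

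Among the small subunit genes of chromosome 7, Rps3, a protein at the mRNA entry channel, had the highest value of the family. Rps3 stood at 2745, 2996 and 3124 CPM in the K700E/+ libraries, against 1648, 1779 and 1736 CPM in the +/+ libraries. The lowest K700E/+ library was thus well above the highest +/+ library, and the log2 fold change was 0.78 ± 0.07 (SE, edgeR adjusted p = 4.32e-05). Rps16, whose tail reaches the peptidyl tRNA site, had 859.3, 942.5 and 978.8 CPM in K700E/+ cells, against 634.0, 646.7 and 585.9 CPM in +/+ cells (log2 fold change 0.57 ± 0.07). These groups did not overlap either. Rps13 and Rps15a, which bind 18S rRNA, had log2 fold changes of 0.54 and 0.51. For Rps13, reads of 7 annotated pseudogenes came to 20.4% of its own reads, and for Rps15a those of 8 came to 16.1%. The levels of both thus rest in part on how reads were placed among copies. Rps19, the gene most often mutated in Diamond-Blackfan anemia in humans, had 1356, 1428 and 1542 CPM in K700E/+ cells, against 1018, 994.4 and 1042 CPM in +/+ cells. The log2 fold change of Rps19 was 0.50 ± 0.07 (edgeR adjusted p = 0.000316), and its groups did not overlap.

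Among the large subunit genes, Rpl18, also mutated in Diamond-Blackfan anemia, had 1182, 1317 and 1376 CPM in K700E/+ cells, against 790.8, 844.0 and 786.5 CPM in +/+ cells. Its log2 fold change was 0.68 ± 0.07 (edgeR adjusted p = 9.45e-05), the second highest of the family. Rpl28, a large subunit protein of mammals that budding yeast lacks, reached 0.57, Rpl27a 0.56 and Rpl13a 0.56. Rpl13a is the gene of chromosome 7 with the lowest level, a mean of 140.9 CPM in K700E/+ cells and 95.8 CPM in +/+ cells, and its groups stayed apart. Rplp2, an acidic protein of the P stalk that recruits translation factors, rose by 0.49, while its partners in the stalk, Rplp0 on chromosome 5 and Rplp1 on chromosome 9, had log2 fold changes of -0.05 and -0.09 and did not pass. The values of Rplp0 overlapped between genotypes, at 1490, 1601 and 1726 CPM in K700E/+ cells and 1520, 1774 and 1698 CPM in +/+ cells.

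**Figure D1:**
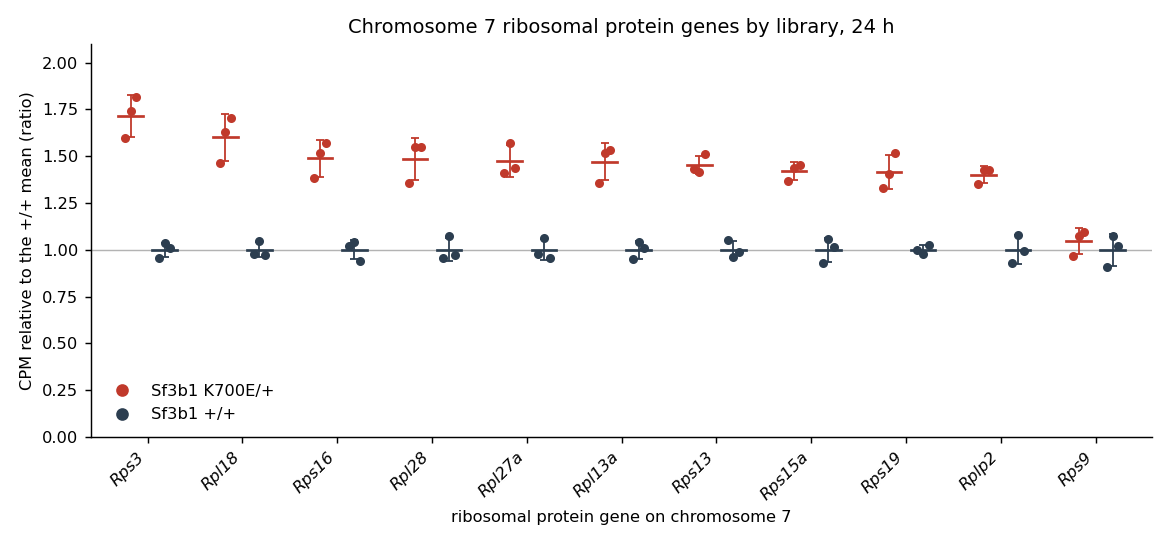
CPM of 11 of the 14 tested ribosomal protein genes of chromosome 7 in each library, divided by the mean of the 3 +/+ libraries (y axis, ratio), with K700E/+ left of +/+ for each gene, bars for the mean and whiskers for the SD (n = 3 each). All K700E/+ points lie above all +/+ points in 10 genes, by 1.40 to 1.72 times on average, and the points of Rps9 overlap.

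The exception on chromosome 7 was Rps9, a small subunit protein that helps to shape the decoding region, which is described here because of its value. Rps9 had 1606, 1780 and 1818 CPM in K700E/+ cells, against 1504, 1778 and 1692 CPM in +/+ cells. The genotypes overlapped, with a log2 fold change of 0.06 ± 0.08 (edgeR adjusted p = 0.551). Nearby genes were mixed. On one side, Tsen34 (0.06), Mboat7 (-0.17) and Tmc4 (-0.42) next to it did not pass. Leng1 (0.60), Prpf31 (0.70) and Tfpt (0.54), a few genes further on that side, were higher in K700E/+ cells. On the other side, Pirb (-1.12) next to Rps9 was lower and Lair1 (2.62) higher, both with genotype means of at most 2.07 CPM. The untested Rps12l1, the remaining gene of the family on this chromosome, had at most 4 counts per library.

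The other chromosomes gave a different picture. Members lay on 19 chromosomes, and with chromosome 7, chromosome Y and the mitochondrial genome left out, the median log2 fold change over all genes of a chromosome ran from -0.09 to 0.03. The 68 members on these other chromosomes had a median of -0.01 (SD over genes 0.15). Of the 68, 3 were higher and 3 lower, beside 18.3% of all genes on other chromosomes called higher and 24.5% called lower. The shift of chromosome 7 stood under each scaling tried. With factors computed without the genes of chromosome 7, the median of the family's 14 genes there was 0.57 and that of its 68 other genes 0.02, and 13 of the 14 stayed called under every alternative scaling, filter and test, with the block and without any 1 library. Chromosomes were taken from GENCODE M21 by gene identifier, and all 5338 genes placed in both sources had the same chromosome in the event table, which is on GRCm39. The reads of splicing events come from the same libraries and were scaled with the same factors, so they are no independent check. They gave a median log2 ratio of 0.49 over 1545 tested events on chromosome 7 and -0.04 over 16166 events elsewhere. DNA copy number was not measured in these files.

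**Figure D2:**
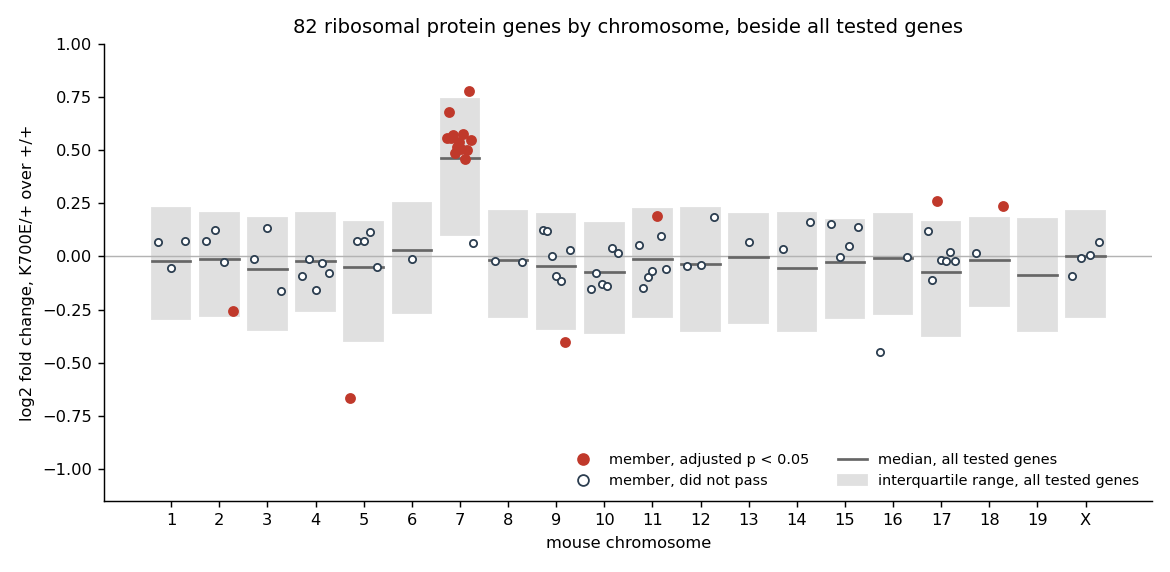
Log2 fold change (K700E/+ over +/+, y axis) of the 82 tested ribosomal protein genes on each chromosome (x axis), filled where the adjusted p was under 0.05. Grey bars are the interquartile range of all tested genes of the chromosome and lines their median. Chromosome 7 has its median at 0.46 and 13 filled points, and the other chromosomes shown have medians between -0.09 and 0.03.

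To see whether a member moved with the genes around it, the 20 tested genes nearest in order, other ribosomal protein genes left out, were taken for each member. Over the 82 members the log2 fold change of the gene and the median of its neighbours had a Pearson r of 0.758, a description across genes that share libraries and, for close members, neighbours. On chromosome 7 the medians of the neighbours ran from 0.06 to 0.71. Rps3 (0.78) lay beside a median of 0.71, with 15 of 20 neighbours called higher, and Rps16 (0.57) beside 0.56. Other members stood above their surroundings, such as Rps13, at 0.54 beside a median of 0.06 where 8 neighbours were called higher and 5 lower. The median difference between member and neighbours was 0.09 over the 14 genes of chromosome 7. Off chromosome 7 the r was 0.421 over 68 members, and 0.251 over 67 without Rpl21.

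**Figure D3:**
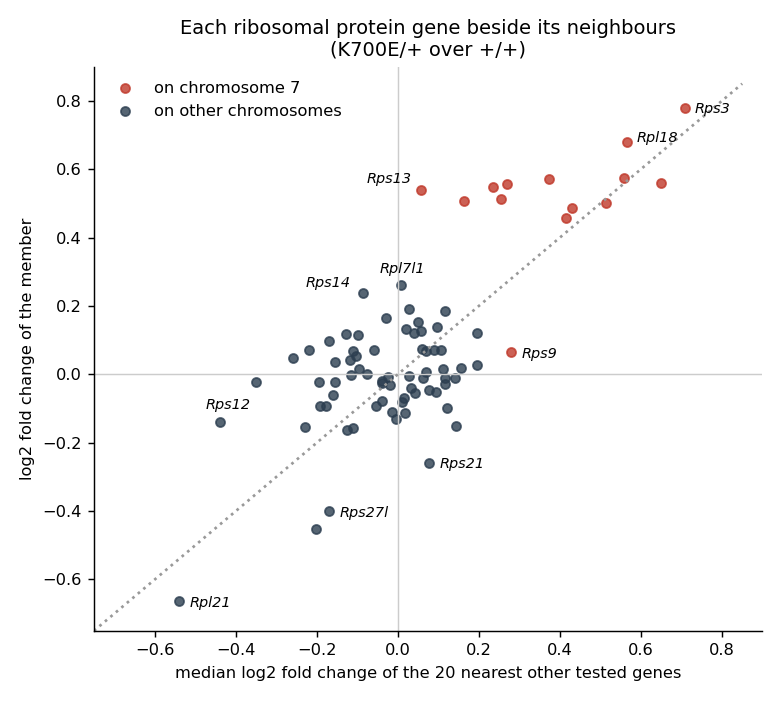
Log2 fold change (K700E/+ over +/+) of each of the 82 members (y axis) against the median of its 20 nearest tested genes that are not members (x axis), with a dotted line where both are equal. Of the 14 members of chromosome 7, 12 lie further right than any other member, Rps13 (0.06) and Rps15a (0.16) lie high but not to the right, Rps9 lies at 0.06 on the y axis, and Rpl21 lies at the lower left, at -0.66 beside -0.54.

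Rpl21, a large subunit protein, had the largest fall of the family and was the gene off chromosome 7 with the largest change. It had 913.1, 1069 and 1088 CPM in K700E/+ cells, against 1510, 1718 and 1637 CPM in +/+ cells. The groups were far apart, and the level in K700E/+ cells was 0.631 of that in +/+ cells (log2 fold change -0.66 ± 0.08, edgeR adjusted p = 0.000255). Its 15 annotated pseudogenes held 0.164% as many reads as the gene. Neighbours of Rpl21 towards the end of chromosome 5, named here after their values were seen, moved the same way: of its 20 nearest genes 16 were lower and 1 higher. Usp12, a deubiquitinase gene next to it, had a log2 fold change of -0.98, Gtf3a, the transcription factor of 5S rRNA genes, -0.52, Polr1d, a subunit shared by RNA polymerases I and III, -0.62, and Pomp, a proteasome assembly factor, -0.81. The exception was Rasl11a, which lies between Rpl21 and Gtf3a and was higher (1.21). The median over all 813 genes tested on chromosome 5 was -0.05, so the lower values were of this stretch and not of the chromosome.

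Rps27l, a paralog of Rps27 whose gene is induced by p53 in human cells, had 194.2, 185.4 and 193.6 CPM in K700E/+ cells, against 285.1, 227.3 and 244.4 CPM in +/+ cells. It was lower in K700E/+ cells (log2 fold change -0.40 ± 0.08, edgeR adjusted p = 0.00397), the +/+ libraries were spread widely, and its neighbours had a median of -0.17. Rps21, a small subunit protein that takes part in late 18S rRNA processing, had 396.0, 367.4 and 400.2 CPM in K700E/+ cells, against 451.8, 477.0 and 463.6 CPM in +/+ cells. The log2 fold change of Rps21 was -0.26 ± 0.06 (edgeR adjusted p = 0.00631), while its neighbours had a median of 0.08.

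The 3 members that were higher off chromosome 7 had small changes. Rpl7l1, a paralog of Rpl7 that takes part in large subunit assembly in human cells, had 234.5, 228.3 and 234.2 CPM in K700E/+ cells, against 203.2, 187.9 and 190.6 CPM in +/+ cells (log2 fold change 0.26 ± 0.06, edgeR adjusted p = 0.00458). Rps14, the 5q- gene, had 1224, 1353 and 1429 CPM in K700E/+ cells, against 1103, 1145 and 1149 CPM in +/+ cells, with its lowest K700E/+ library close to the +/+ libraries. Its log2 fold change was 0.24 ± 0.07 (edgeR adjusted p = 0.0224). Rpl27, a Diamond-Blackfan gene, reached 401.3 to 410.1 CPM in K700E/+ cells and 335.4 to 369.6 CPM in +/+ cells (0.19 ± 0.06, 0.0231). When any 1 of 4 libraries (replicates 2 and 3 of either genotype) was left out, neither Rps14 nor Rpl27 passed, with adjusted p of 0.0516 to 0.0773 and of 0.0538 to 0.0896. With the replicate number as a block, 9 members off chromosome 7 were higher and 7 lower, instead of 3 and 3. The share of all genes called with the block is not given here, so these counts cannot be set beside it. Those added were Rpl3, Rpl8, Rpl34, Rpl35, Rps7 and Rps24 among the higher, and Rpl23, Rps12, Rps20 and Rps27 among the lower, with blocked adjusted p from 0.00975 to 0.0496 and changes of at most 0.19 on the log2 scale.

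**Figure D4:**
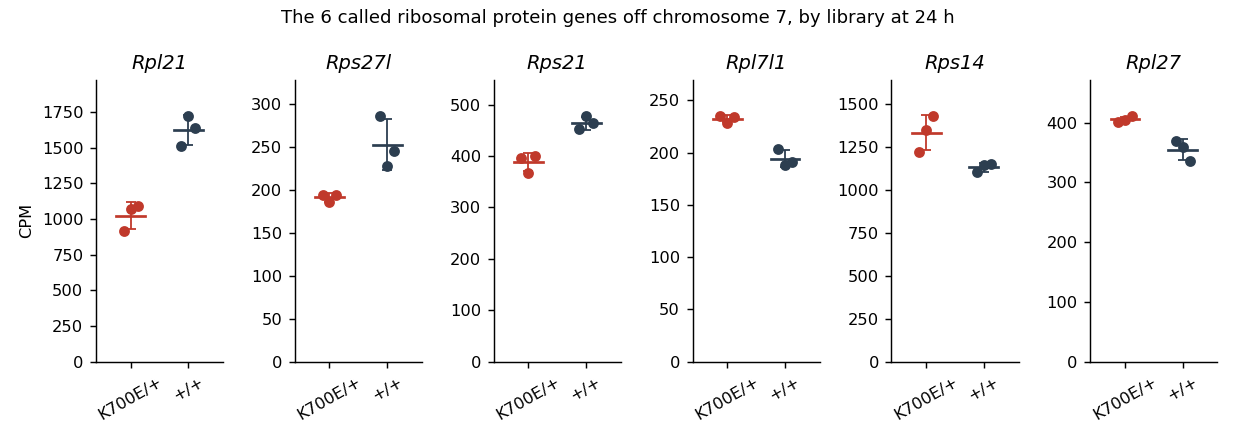
CPM (y axis, from 0, own scale per gene) of the 6 called members off chromosome 7 in each library, with K700E/+ left of +/+, bars for the mean and whiskers for the SD (n = 3 each). Rpl21 averages 1023 CPM in K700E/+ cells and 1622 CPM in +/+ cells, and Rps27l and Rps21 are also lower in K700E/+ cells, with smaller differences in Rpl7l1, Rps14 and Rpl27.

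The remaining 63 tested members did not pass in the test without the block, with most values close to equal between genotypes. The 3 members with most reads were Rpsa, the laminin receptor that doubles as a small subunit protein, Rpl4 and Rpl7, both large subunit proteins. Rpsa had 3855, 4512 and 4677 CPM in K700E/+ cells, against 3800, 4611 and 4380 CPM in +/+ cells (log2 fold change 0.03 ± 0.10), and in both genotypes the first replicate was the lowest. Rpl4 gave 0.00 ± 0.08 and Rpl7 0.07 ± 0.06. Rpl5 and Rpl11 form the 5S ribonucleoprotein particle, which binds Mdm2 when ribosome assembly is disturbed. Rpl5 averaged 1181 CPM in K700E/+ cells and 1123 CPM in +/+ cells (log2 fold change 0.07 ± 0.06), and Rpl11 averaged 832.3 CPM in K700E/+ cells and 887.7 CPM in +/+ cells (-0.09 ± 0.06). Neither passed the test. The members with the lowest adjusted p among those below 0 that did not pass were Rps27 (-0.16), Rps20 (-0.16), Rps12 (-0.14), Rpl23 (-0.15) and Rpl36 (-0.11), and the lowest of the remaining small subunit genes was Rps25 (-0.11). Rpl24, the lowest of the remaining large subunit genes at -0.45 ± 0.25, was counted at only 0.33 to 0.42 CPM in K700E/+ libraries and 0.43 to 0.59 CPM in +/+ libraries.

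A mean of at least 100 CPM was reached by 76 of the 87 members, and 5 tested members stayed under 10 CPM, namely Rps10, Rpl24, Rpl36al, Rpl6l and Rpl32l. Rps10 had 4.91, 4.23 and 3.998 CPM in K700E/+ libraries and 5.14, 3.59 and 4.60 CPM in +/+ libraries. Reads of 4 annotated Rps10 pseudogenes came to 319% of the reads of Rps10 itself. For Rpl15, a Diamond-Blackfan gene, pseudogene reads came to 18.6% of its own. Values of Rps10 and Rpl15 are therefore uncertain, and adding pseudogene reads to every member left 16 higher and 3 lower.

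Of 22 Diamond-Blackfan genes fixed as a list from the human disease, 5 were higher in K700E/+ cells (22.7%, beside 21.3% of all tested genes) and none lower. With the replicate number as a block 8 were higher and 2 lower, the lower ones being Rps20 and Rps27, and no share of all genes is given for it. Without the block, 4 of the 5 lie on chromosome 7, Rps19 and Rpl18 among them, and the fifth is Rpl27. The 18 genes of the list on other chromosomes had a median log2 fold change of 0.02. The paralog list held 8 genes, of which 4 were tested: Rps27l was lower, Rpl7l1 higher, and Rpl22l1 (-0.01) and Rpl36al (-0.05) did not pass. Of these only Rpl36al was counted at a low level, at a mean of 1.86 CPM in K700E/+ and 1.92 CPM in +/+. It had 72 to 100 gene counts per library, while 1 of its splicing events held 977 reads over the 6 libraries. Its gene level is therefore uncertain. Rpl22l1 averaged 103.4 CPM in K700E/+ cells and 104.3 CPM in +/+ cells. Rpl3l, Rpl10l, Rpl39l and Rps4l, known from muscle, testis or few tissues, had at most 6 counts in any library.

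The family's summed reads overlapped between genotypes, while the share of them from chromosome 7 did not. Members took 8.49%, 9.03% and 9.15% of all counts in the K700E/+ libraries, against 8.38%, 8.77% and 8.57% in the +/+ libraries. The groups overlapped (difference 0.318 percentage points, exact permutation test, two-sided, p = 0.3, where 0.1 is the smallest p that 3 against 3 can give). Between libraries of the same replicate number, K700E/+ was higher in 3 of 3 pairs (exact sign-flip permutation p = 0.25, the smallest that 3 pairs can give). Genes of chromosome 7 gave 21.16%, 21.09% and 20.98% of the family's reads in K700E/+ libraries, against 15.67%, 15.84% and 15.56% in +/+ libraries. These groups were far apart relative to their spread (difference 5.39 percentage points, exact permutation p = 0.1, the smallest possible). Small subunit genes gave 45.2 ± 0.14% of the family's reads in K700E/+ cells and 43.5 ± 0.20% in +/+ cells (SD, n = 3 each, exact permutation p = 0.1). Without the genes of chromosome 7 the shares were 38.3% in K700E/+ cells and 38.1% in +/+ cells and overlapped (exact permutation p = 0.4), with K700E/+ higher in 3 of 3 pairs, and the family's share of all counts was then 7.02% in K700E/+ cells and 7.23% in +/+ cells, lower in K700E/+ in 3 of 3 pairs (exact sign-flip permutation p = 0.25).

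Members also moved together within a genotype. Among the 77 members with a mean of at least 5 CPM, 72 lay below their genotype's mean in replicate 1 of K700E/+ and 7 in replicate 3, and 54 lay below it in replicate 1 of +/+ and 14 in replicate 2. The median deviation was at most 0.07 on the log2 scale in size, less than the changes of the 13 genes of chromosome 7.

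Genes around the ribosomal proteins were taken from fixed lists. Beside their counts stand the 21.3% of all tested genes called higher and the 23.1% called lower. On chromosome 7 these shares were 60.0% and 7.34%. Of 10 chaperones and importers that carry ribosomal proteins to the nucleus or to the ribosome, 5 were higher and none lower, with a median log2 fold change of 0.28. The 4 with the largest changes all lie on chromosome 7: Bccip (0.75), whose yeast counterpart is a chaperone of Rpl23, Pdcd2l (0.76), the importin Ipo7 (0.76), and Grwd1 (0.83), a chaperone of Rpl3. Of 14 other TOP mRNAs, 3 were higher and 1 lower. Eif3f, a subunit of initiation factor 3 on chromosome 7, had 714.3, 759.0 and 786.6 CPM in K700E/+ cells, against 484.3, 501.5 and 484.4 CPM in +/+ cells (log2 fold change 0.62). Eef1g (0.31) and Nap1l1 (0.23) were also higher and Eif3h (-0.21) lower, and these 3 lie elsewhere. Of the ribosomal proteins that the symbol rule leaves out, Rack1 (0.13), Rps3a1 (0.07) and Fau (-0.04) did not pass.

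The next lists are short, and their counts stand beside 21.3% of all tested genes called higher and 23.1% called lower. In the mTORC1 and LARP1 list of 11 genes, 2 were higher and 2 lower. Larp1, which binds the TOP motif, was higher (0.45), as was Eif4ebp1 (0.26), an inhibitor of initiation, and Tsc2, which restrains mTORC1, was lower (-0.55). Among 6 genes of the p53 arm, 1 was higher and 3 lower. Cdkn1a, the cell cycle inhibitor p21, had 116.2, 124.0 and 126.1 CPM in K700E/+ cells, against 254.8, 290.1 and 305.1 CPM in +/+ cells (log2 fold change -1.21, edgeR adjusted p = 5.65e-06). The groups did not overlap. Mdm4 (-0.40) and Mdm2 (-0.31), which restrain p53, were lower as well. The gene that was higher was Bax (0.18, edgeR adjusted p = 0.0207), which lies on chromosome 7. Of 6 ribosome rescue genes, 1 was higher and 3 lower: Zfp598, which marks collided ribosomes, changed by -0.57, Hbs1l, a rescue factor, by -0.37, and Gcn1, which senses stalled ribosomes, by 0.35.

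Splicing was read from pairs of alternative paths (events) that the authors assembled from the reads. PSI is the share of the longer path after each path's reads were divided by its length. It compares the paths of 1 event and is not a share of all transcripts of the gene. The table held 89 rows of members, 3 of which repeat another row, and 83 distinct events in 41 genes had at least 10 reads in every library. They comprise 53 retained introns in 33 genes, 14 alternative donors, 6 alternative acceptors, 7 short deletions, 2 skipped exons and 1 combined event. An event was called at an adjusted p under 0.05 and a PSI difference over 0.10, and 2 of the 83 were called, both retained introns with a higher PSI in K700E/+ cells. Over all events tested, 2.18% were called with a higher and 4.12% with a lower PSI. Of the 83, 3 passed the adjusted p at any PSI difference, against 9.46% of all events.

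The first is an intron of 620 nt in Rps12, a small subunit protein, in an event that spans 23661864 to 23662562 of chromosome 10 (GRCm39, - strand). Its PSI was 0.711, 0.683 and 0.607 in K700E/+ libraries, against 0.553, 0.488 and 0.472 in +/+ libraries. The genotypes did not overlap and differed by 0.163 (edgeR adjusted p = 0.000982), with 77 to 92 reads on the spliced path in K700E/+ libraries and 112 to 124 in +/+ libraries. In the PSI values deposited by the authors the difference was 0.17. With limma on logit PSI this difference did not pass (adjusted p = 0.14). Gene counts of Rps12 had a log2 fold change of -0.14 and did not pass.

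The other called intron, of 768 nt, lies in Rpsa, in an event on chromosome 9 from 119958304 to 119959149 (GRCm39, + strand). Its PSI was 0.816, 0.796 and 0.764 in K700E/+ libraries, against 0.632, 0.599 and 0.618 in +/+ libraries, again without overlap (difference 0.176, edgeR adjusted p = 0.0019, and 0.19 in the deposited PSI). Only 19 to 30 reads per library covered its spliced path, while the gene had 1113759 reads over the 6 libraries, so these paths cover a small part of the gene's output. With reads over the junctions of the longer path alone, the difference was 0.10 and did not pass (adjusted p = 0.367). In the same gene an alternative acceptor of 3 nt had 6 to 7 reads on the longer path in K700E/+ libraries and 10 to 26 in +/+ libraries. Its PSI of 0.0211 in K700E/+ cells and 0.0637 in +/+ cells passed the test (edgeR adjusted p = 0.00796) but lay under the PSI threshold.

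Over the 53 retained introns the median PSI difference was 0.01, with 30 above and 23 below 0. Of these, 10 differed by more than 0.10 namely 4 with a higher and 6 with a lower PSI in K700E/+ cells, and 8 of them did not pass. An intron of 487 nt in Rps15a had a PSI of 0.705, 0.656 and 0.528 in K700E/+ libraries, against 0.773, 1.00 and 0.781 in +/+ libraries (difference -0.22, edgeR adjusted p = 0.0557). Its spliced path had 20 to 22 reads in K700E/+ libraries and 0 to 6 in +/+ libraries. Introns of Rps20 (0.17, adjusted p = 0.0745) and Rpl39 (0.14, 0.0683) also missed the threshold, with few spliced reads. The other 5 that did not pass had PSI differences from -0.184 to -0.118, with adjusted p from 0.199 to 0.563. Of these, 2 overlap each other in Rpl22, and the others lie in Rpl7, Rpl37 and Rplp1. The larger Rpl22 value is a PSI of 0.450 in K700E/+ cells and 0.634 in +/+ cells, with overlapping libraries. Rps15a, Rps20 and Rpl39 were drawn, and all of these were named, after their values were seen. With the replicate number as a block the introns of Rps15a, Rps20 and Rpl39 were called too. That gave 4 introns with a higher and 1 with a lower PSI in K700E/+ cells. The share of all events called with the block is not given here.

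**Figure D5:**
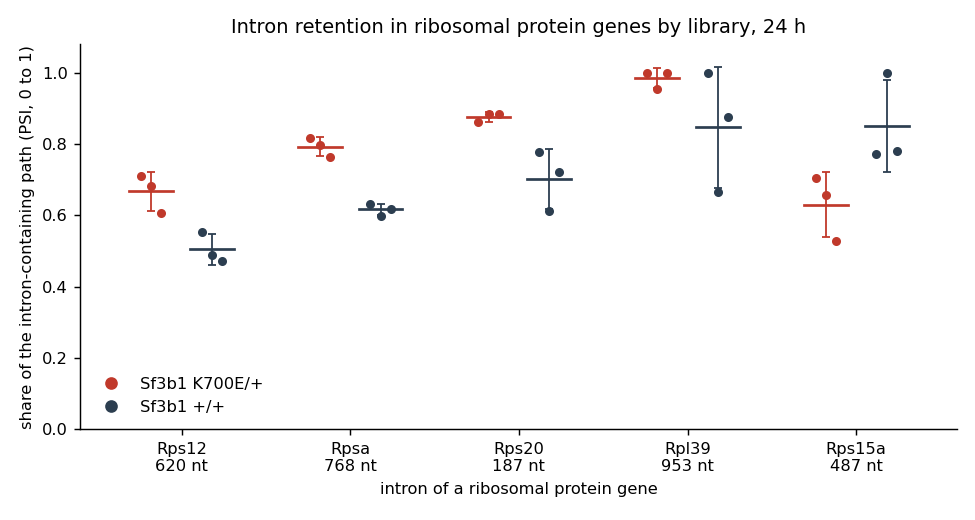
PSI (share of the intron-containing path, y axis, 0 to 1) in each library of the 5 introns called with or without the block, with K700E/+ left of +/+, bars for the mean and whiskers for the SD (n = 3 each). The Rps12 and Rpsa introns were called, with differences of 0.163 and 0.176, and the genotypes lie apart in them, while those of Rps20, Rpl39 and Rps15a missed the adjusted p of 0.05.

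None of the other kinds of event was called. The 6 alternative acceptors had PSI differences from -0.04 to 0.15, and the 14 alternative donors from -0.07 to 0.03. The deepest events among those not called were deletions of 3 nt in Rpl7, with 158458 reads over the libraries, and in Rpl41, the shortest protein of the ribosome, with 157544. In both, and in 4 further deletions of 3 nt, the mean PSI of the longer path was at least 0.9998 in either genotype. The shorter path had 0 to 7 reads in a library there, beside 15526 to 31115 on the longer one, so these events could not show a difference.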

How the data were processed

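Poly(A) RNA of 6 of the 12 samples in the labels was analysed, those at 24 h of estradiol. Samples without estradiol were not used here. Reads were aligned with STAR 2.7.9 on GRCm39, as the labels name it, and the authors deposited raw counts by gene for each library. The study's software list names STAR as the counter too, with a human build, and the mouse annotation is not given in the sources used here. They also deposited read counts of both paths of 19323 events and a PSI per library as a fraction. 7 event rows that name a member together with other genes were left out. The authors' DESeq2 1.30.1 comparisons were not used.

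Genes were filtered with filterByExpr, scaled by TMM and tested with edgeR 4.0.16 (R 4.3.3) without a block. For events, path by genotype was fitted in edgeR on the counts of both paths, at a minimum of 10 reads. PSI recomputed from the counts had a Pearson r of 0.983 with the deposited fraction over 111044 values, lay a median of 0.0367 above it and was within 0.01 of it in 13.4%. The text gives the recomputed PSI unless it says otherwise. Both steps were also run on simulated data. Those libraries were independent, with no link between libraries of the same number and no shift of chromosome 7. The run therefore does not test the steps under the conditions of these data. Alternatives used DESeq2 1.42.0, limma 3.58.1, other scalings, filters, coverage, and each library left out. Chromosomes and gene order came from GENCODE M21 (GRCm38) by identifier, with 280 tested genes unplaced. Named are the members with the 8 lowest adjusted p in each direction, extremes of each subunit, paralogs, Rps14, Rpl5, Rpl11, called Diamond-Blackfan genes, the 3 members with most reads, and up to 3 genes of other lists. Other genes and events were named after their values were seen. A few genes that this rule names are not reported here, and the counts over the family include them. The members, lists and alternatives were chosen with earlier results of these data known.

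Libraries of a genotype differed by a chi-square per degree of freedom of 8.07 to 35.8, so none is a copy. Deviations from genotype means over 8771 genes correlated at 0.627, 0.484 and 0.48 between libraries of the same number, which was therefore taken to pair them. The main gene and event tests leave this pairing out, so a member or intron that did not pass in them may pass with it. With the number as a block, 22 members were higher and 7 lower, instead of 16 and 3. No share of all genes is given for the block. Counting intervals are not given, since the spread between libraries is used, and reads without molecular identifiers are not independent molecules.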

Additional observations from a re-analysis of the deposited data

How the results depend on the processing

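Over 15 alternatives of the gene test, 277 of 285 values of the 19 called members stayed called in the same direction, and the 8 that did not are those of Rps14 and Rpl27 without single libraries. On chromosome 7, 13 members were higher under each of these. With scaling factors computed without chromosome 7 (chosen after seeing the data) 5 members on other chromosomes were higher, Rpl34 and Rps7 being added. The replicate block gave 7 members lower in all, and 9 higher and 7 lower off chromosome 7, and it changed no call on chromosome 7. Shares of all genes and events called with the block are not given here. Leaving out a library gave 14 to 18 members higher and 3 to 6 lower, with 1 to 5 higher and 3 to 6 lower off chromosome 7. The count of 6 lower was without replicate 1 of +/+. Requiring a log2 fold change over 1 left 0 higher and 0 lower. After subtraction of the neighbours' median (chosen after seeing the data) the median of the chromosome 7 members was 0.0917. Over the whole family, leaving out a library moved the difference in its share of all counts between 0.188 and 0.518 percentage points and that in the small subunit share between 1.65 and 1.84. Without chromosome 7 (chosen after seeing the data) these differences were -0.210 and 0.141. For events, the block gave 4 with a higher and 1 with a lower PSI, junction reads alone 1 and 1, limma 1 with a higher PSI, and a PSI threshold of 0.20 left 0. Leaving out a library gave 2 to 3 higher and 0 to 1 lower, the lower one being Rps15a without replicate 1 of K700E/+, and the third higher one Rpl39 without replicate 1 of +/+. With 3 libraries per genotype and 1 clone each, the tests show differences between these clones, and low spliced-path reads limit the intron values.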
